A study of Bos taurus with 2 samples.

Results

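The cells described here are newborn mammary fibroblasts rich in POSTN, the gene of the matrix protein periostin (ENSBTAG00000012409 in the files). They were chosen from the newborn library of a study of the bovine mammary gland, on raw counts of unique molecular identifiers (UMIs), each of which marks 1 captured transcript. A cell barcode was kept as a fibroblast when it held at least 300 detected genes, at least 3 of the 4 genes COL1A1, COL3A1, DCN and LUM, no UMI of the mast cell genes CPA3 and MS4A2, and at most 1 UMI in all of the contractile genes CNN1, OXTR, DES and MYLK. A fibroblast barcode with 3 or more POSTN UMIs was called POSTN-rich. The rule was met by 412 barcodes, which were 3.62% of 11380 newborn fibroblast barcodes (exact binomial 95% interval 3.28 to 3.98). The newborn library held 13772 barcodes in all, and the whole series held 29669.

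Periostin is a secreted matricellular protein, meaning that it sits in the extracellular matrix without being one of its main load-bearing fibres. It binds collagen type I, fibronectin and tenascin, helps the enzymes that crosslink collagen, and signals to cells through integrins. It is known from periosteum, tendon, skin and developing connective tissue, and from fibroblasts that lay down matrix during repair. Fibrillar collagens are secreted as procollagens, trimmed and hydroxylated by dedicated enzymes, and crosslinked by lysyl oxidases outside the cell.

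Both libraries came from mammary gland tissue of Holstein dairy cattle. One was from a newborn and the other from a lactating adult, with 1 library each, and the labels do not say how many animals each holds. The tissue was freed of fat, cut up, and digested with hyaluronidase and collagenases before capture with the 10x Genomics 3' V3 chemistry, so that cells which resist digestion may be missing. The newborn library held 65597671 UMIs with a median of 4581 per barcode, and the adult library 85388618 UMIs with a median of 2723. The same cell barcode sequence occurred in both libraries for 57 barcodes, of which 0 were POSTN-rich. Cells of 1 library are not replicates, so no test was possible. Every interval below covers counting error only, and every value describes this library.

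POSTN was a sparse transcript in newborn fibroblasts. It was at 0 UMIs in 9071 of the 11380 fibroblast barcodes (79.7%), at 1 UMI in 1464 and at 2 UMIs in 433. Among the POSTN-rich barcodes 191 held 3 UMIs, 105 held 4, 105 held 5 to 9, and 11 held 10 or more, with a highest count of 37. Most of the group therefore lay near its lower limit, and its counts formed a tail of the distribution with no gap. Over all fibroblast barcodes the variance of the POSTN count was 2.83 times its mean. The 412 barcodes held 1768 of the 4412 POSTN UMIs of the newborn library (40.1%).

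**Figure D1:**
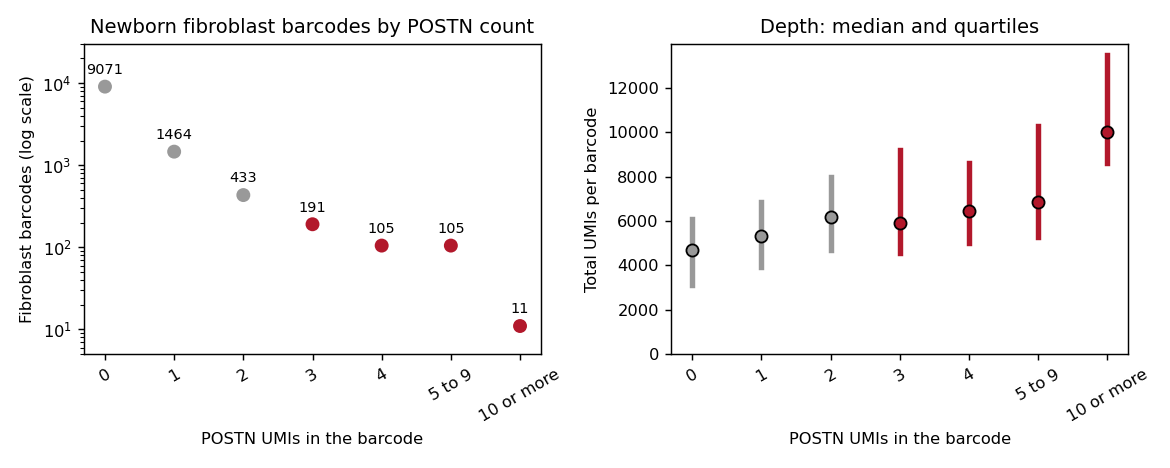
Newborn fibroblast barcodes by their POSTN count (left, number of barcodes on a log scale) and the total UMIs of those barcodes (right, median as a point and quartiles as a bar). Red classes are POSTN-rich. Barcodes with 0 POSTN UMIs number 9071 at a median depth of 4675 UMIs, and the 11 barcodes with 10 or more have a median depth of 10016 UMIs.

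Depth moved with the choice of cells. The POSTN-rich barcodes had a median of 6457.5 UMIs (lowest 1215, highest 26099), against 4675 UMIs in barcodes without POSTN. Just outside the limit, barcodes with 2 POSTN UMIs had a median of 6162 UMIs and a POSTN level of 299 CPM, which are UMIs scaled to a fixed total over the same cells. Just inside it, barcodes with 3 POSTN UMIs had a median of 5926 UMIs and 426 CPM. Scaled to each cell's own depth, POSTN in the POSTN-rich barcodes ran from 133 CPM through a median of 599 CPM to 3694 CPM. The gene comparisons below therefore set each POSTN-rich barcode beside a fibroblast barcode with 0 POSTN UMIs of nearly the same depth.

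POSTN was also counted in some mast cell barcodes, a cell type that should lack it. In 104 barcodes with 10 or more UMIs of CPA3 and MS4A2 in all, POSTN stood at 37.3 CPM (17.9 to 68.6) and was found in 3.85% of barcodes at a median depth of 1741 UMIs, and 2 of them held 3 or more POSTN UMIs, with a highest count of 5. In the 52 of these with at most 1 of the 4 fibroblast genes, POSTN was found as 1 UMI (12.4 CPM, 0.313 to 68.9), in 1.92% of barcodes at a median depth of 1435 UMIs. In fibroblast barcodes it stood at 70.3 CPM (68.1 to 72.5) and was found in 20.3% of barcodes at a median depth of 4859.5 UMIs. Thinned to 1000 UMIs each, the shares were 4.12% (1.13 to 10.2) in the 104 mast cell barcodes, 2.17% (0.0550 to 11.5) in the 52, and 6.10% (5.66 to 6.57) in fibroblast barcodes. The thinned shares of mast cell and fibroblast barcodes cannot be told apart at this number of mast cell barcodes. In 288 barcodes with 0 of the 4 fibroblast genes, POSTN was found as 1 UMI (2.74 CPM, 0.0694 to 15.3). Their median depth was 1041 UMIs. Thinned to 1000 UMIs, 0 of 155 such barcodes held POSTN (0% to 2.35%), an interval below that of fibroblast barcodes. These barcodes were picked for lacking fibroblast transcripts.

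The fibroblast label was checked on marker genes that the rule did not use. All 11 such fibroblast markers were present in the POSTN-rich barcodes and together made up 10200 CPM, against 8295 CPM in the depth-matched barcodes without POSTN, and 400 of the 412 barcodes held 10 or more of their UMIs. Epithelial markers summed to 2 UMIs over all 412 barcodes, with 14 of 15 at 0, including EPCAM, KRT5, KRT8 and KRT14. RGS5 and MYH11, which define pericytes and smooth muscle, were at 0, and ACTA2, the actin of contractile cells, was counted 1 time. Of 12 markers of pericytes and smooth muscle 7 were above 0, with 48 UMIs in all and 58 in the partners. SOX10, a Schwann cell gene, was at 0, and 2 of 8 Schwann cell markers were above 0, with 28 UMIs and 24 in the partners. Not every barcode was free of other lineages. Of 10 T or NK cell markers in the files 9 were above 0, with 60 UMIs and 93 in the partners. In 2 POSTN-rich barcodes these markers summed to 10 or more UMIs, and in 1 barcode the endothelial markers did, with 29 UMIs. No barcode in the group held 5 or more UMIs of the 10 cell division genes used to find dividing cells.

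The adult library held no such cell. By the same rule 271 adult barcodes were fibroblasts, and 0 of them were POSTN-rich, which allows a share of up to 1.11% (3 counts of the total). POSTN was found in 4 of these 271 barcodes, always as 1 UMI. Their POSTN level was 2.52 CPM, and that of newborn fibroblast barcodes 70.3 CPM, which was 27.8 times higher (10.9 to 102). Thinned to 3000 UMIs each, 14.5% (13.7 to 15.2) of newborn and 0.725% (0.0183 to 3.97) of adult fibroblast barcodes held a POSTN UMI, with 2422 newborn and 133 adult barcodes left out as too shallow. In the adult library 4 barcodes of any kind held 3 or more POSTN UMIs, and none of them was a fibroblast by the rule.

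Against depth-matched fibroblasts without POSTN, the POSTN-rich cells carried more transcript of most collagens, and of FNDC1, KERA, VCAN and CTHRC1. They carried less of the chemokines CXCL5 and CXCL2, the acute phase gene SAA3, the activin subunit INHBA and the transcription factor SNAI1. CXCL5, CXCL2 and SAA3 were also lower in depth-matched barcodes with 1 POSTN UMI than in those with none. Most of these differences were under 2-fold. All 412 POSTN-rich barcodes found a partner within 10% of their depth, which gave 3092933 UMIs against 3090477, median depths of 6457.5 and 6456.5 UMIs, and a median mitochondrial share of 1.06% in both sets. The POSTN-rich barcodes detected slightly more genes, with a median of 1707 against 1636.5.

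Genes were measured where the higher set reached 20 CPM and 20 UMIs. Of these 4385 genes, 10 were at least 2-fold higher in the POSTN-rich cells (0.228%) and 50 at least 2-fold lower (1.14%). The median log2 ratio of all genes was 0.02, and 53.1% of genes had a ratio above 1. At 1.5-fold, 92 genes (2.1%) were higher and 117 (2.67%) lower. The partner barcodes were not all clean fibroblasts: when the 11380 barcodes were clustered without the genes of the rule, 19 partners and 5 POSTN-rich barcodes fell in 3 small clusters led by genes of T or NK cells, mast cells or endothelium. Endothelial markers summed to 825 UMIs in the partners and 49 in the POSTN-rich cells, and myeloid markers to 678 and 490 UMIs. The comparison was therefore repeated without those 3 clusters and with 3 partners for each of 403 POSTN-rich barcodes, which is called the cleaned comparison here. Endothelial markers then stood at 9.13 CPM in the partners and 6.46 CPM in the POSTN-rich cells. In it 4278 genes were measured, with 6 at least 2-fold higher (0.14%) and 6 at least 2-fold lower (0.14%), a median log2 ratio of 0.03, and 55.9% of ratios above 1.

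The measured fibrillar collagens, which form the fibres of connective tissue, were higher over the POSTN-rich cells as a set, though not within every cluster. COL1A1 and COL3A1, the main chains of collagens I and III, are genes of the rule and are given as a description only. COL1A1 stood at 7847 CPM in the POSTN-rich cells and 5775 CPM in their partners, a ratio of 1.36 (1.33 to 1.39), and COL3A1 at 4289 and 2977 CPM, a ratio of 1.44 (1.40 to 1.48). COL1A2, the other chain of collagen I, was not in the rule and differed by much the same factor. It reached 6932 CPM, with 5308 CPM in the partners (ratio 1.31, 1.28 to 1.33). Single cells overlapped widely: after the clusters of other lineages were left out, COL1A2 ran from 0 through a median of 5622 to 62760 CPM in 407 POSTN-rich barcodes. In 405 partners it ran from 0 through a median of 4268 to 31394 CPM.

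Collagen V, which nucleates and limits the width of collagen I fibres, gave the same picture. COL5A1 was found in 86.4% of POSTN-rich cells and 81.6% of partners, with a ratio of 1.26 (1.17 to 1.37). COL5A2 was found in 33.7% and 21.8%, with a ratio of 1.54 (1.21 to 1.95). COL5A3 was found in 22.8% and 14.8%, with a ratio of 1.56 (1.17 to 2.09). Of the fibrillar collagen list, 4 of 4 measured members outside the rule had a ratio above 1 and 2 of 4 were at least 1.5-fold higher, where 2.1% of all genes were. In the cleaned comparison 4 of 4 were above 1 and 1 of 4 was at least 1.5-fold higher, where 1.08% of all genes were. The median log2 ratio of the list was 0.50, and 0.48 in the cleaned comparison.

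Collagens that decorate or link the fibres were higher as well. COL6A3, a chain of the beaded collagen VI filaments, reached 58.5 CPM, with 38.5 CPM in the partners (ratio 1.52, 1.20 to 1.93), and COL6A1 stood at 99.3 CPM, with 73.5 CPM in the partners (ratio 1.35, 1.13 to 1.61). COL12A1, which bridges fibres in tendon and skin, had a ratio of 1.45 (1.21 to 1.76), and COL14A1, of the same class, a ratio of 1.20 (1.07 to 1.35). COL4A1, a basement membrane collagen, stood at 494 against 347 CPM. COL15A1 (ratio 0.774, 0.584 to 1.02) and COL18A1 (ratio 0.793, 0.536 to 1.17) went the other way, each with an interval that spans 1. In all, 7 of 10 other collagens had a ratio above 1, with a median log2 ratio of 0.34.

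Enzymes of collagen synthesis differed less than their substrates. Of 19 measured, 15 had a ratio above 1 and 0 were 1.5-fold higher, with a median log2 ratio of 0.21 (0.22 in the cleaned comparison). LOX, a lysyl oxidase that crosslinks collagen, reached 131 CPM, with 107 CPM in the partners (ratio 1.23, 1.06 to 1.43). The prolyl hydroxylase P3H1 had a ratio of 1.38 (1.10 to 1.75), which was 1.16 (0.965 to 1.39) in the cleaned comparison. PLOD2, a lysyl hydroxylase, went furthest the other way at 0.769 (0.567 to 1.04). The collagen chaperone SERPINH1 stood at 480 against 457 CPM.

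**Figure D2:**
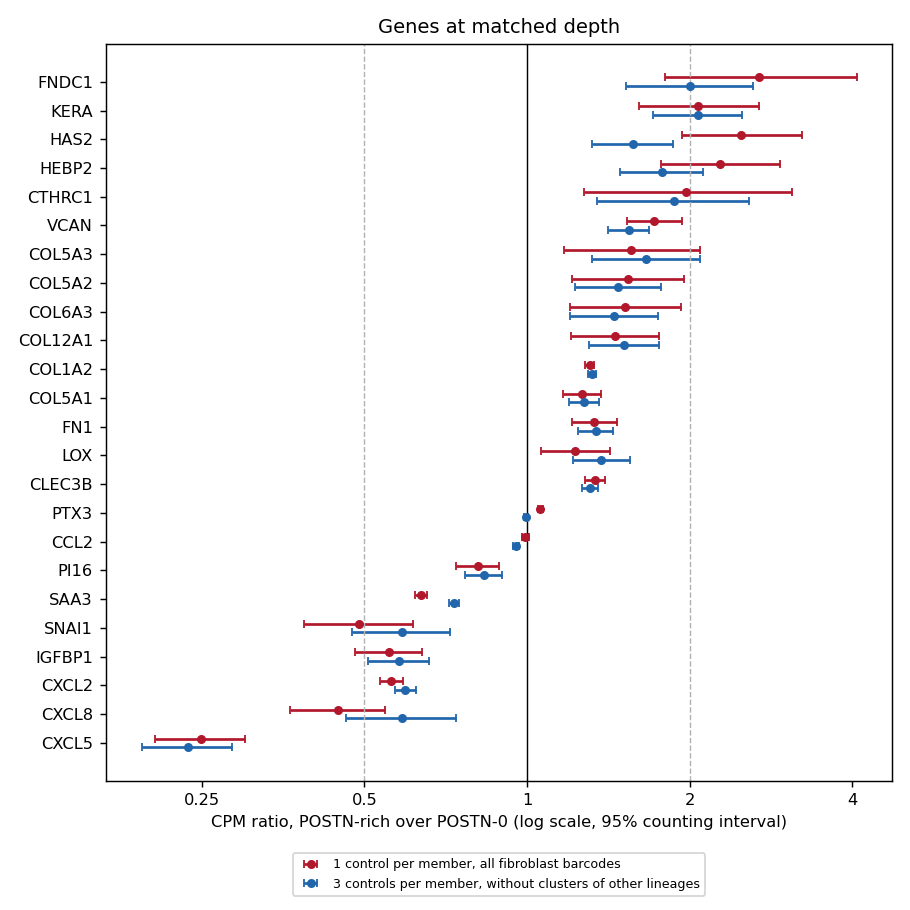
CPM ratio of POSTN-rich over POSTN-free newborn fibroblast barcodes for named genes (log axis, bars are 95% counting intervals). Red is 1 partner per barcode among all fibroblast barcodes, blue is 3 partners per barcode without the clusters of other lineages, and dashed lines mark 2-fold. FNDC1 (2.68 and 2.0) and KERA (2.07 and 2.07) stand at the top, COL1A2 (1.31 and 1.32) has the narrowest interval among the collagens, and CXCL5 (0.249 and 0.236) is lowest.

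FNDC1, KERA and HAS2 were among the genes at least 2-fold higher. FNDC1, a fibronectin type III domain protein, reached 30.4 CPM, with 11.3 CPM in the partners (ratio 2.68, 1.80 to 4.08). It was found in 16.5% of POSTN-rich cells and 7.28% of partners, with no more than 3 UMIs in any POSTN-rich cell. KERA, the small keratan sulphate proteoglycan keratocan, reached 62.4 CPM, with 30.1 CPM in the partners (ratio 2.07, 1.61 to 2.69), and was found in 20.9% and 12.1% of cells. HAS2, a hyaluronan synthase, reached 70.2 CPM, with 28.2 CPM in the partners (ratio 2.49, 1.93 to 3.23). Its ratio was 1.57 (1.32 to 1.86) in the cleaned comparison. KERA kept its ratio at 2.07 (1.71 to 2.5) there, and FNDC1 came just under 2-fold, with an interval of 1.52 to 2.62.

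Other small proteoglycans differed little. The list of small proteoglycans and tendon-type matrix genes had 9 measured members outside the rule. Of these 8 had a ratio above 1 and 2 were 2-fold higher, the proteoglycan KERA and FNDC1. The median log2 ratio of the list was 0.35. In the cleaned comparison it was 0.19, with 1 member 2-fold higher. FMOD, fibromodulin, which binds collagen fibres, had a ratio of 1.30 (1.05 to 1.62). OGN, mimecan, had 1.22 (1.11 to 1.34) and ASPN, asporin, 1.12 (0.934 to 1.34). BGN, biglycan, was lower at 0.794 (0.704 to 0.895), but at 0.964 (0.869 to 1.07) in the cleaned comparison. DCN and LUM, of the rule, had ratios of 1.08 and 1.15.

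Among the matricellular and adhesive proteins, CTHRC1 was found in 12.4% of POSTN-rich cells and 5.58% of partners, with a ratio of 1.97 (1.28 to 3.09). CTHRC1 is a secreted protein known from fibroblasts that produce collagen. VCAN, the large hyaluronan-binding proteoglycan versican, reached 257 CPM, with 149 CPM in the partners (ratio 1.72, 1.53 to 1.93). FN1, fibronectin, had a ratio of 1.33 (1.21 to 1.47), and SPARC, which binds collagen, 1.16 (1.12 to 1.19). The list had 12 of 17 measured members above 1, with 3 at least 1.5-fold higher and a median log2 ratio of 0.17. CCN1 and CCN2, stress and growth factor response genes of this class, stood lower, with ratios of 0.772 (0.726 to 0.822) and 0.819 (0.763 to 0.880). ITGAV, the integrin alpha chain through which cells bind periostin, reached 35.9 CPM, with 22.3 CPM in the partners (ratio 1.61, 1.18 to 2.20), or 1.51 (1.19 to 1.91) in the cleaned comparison.

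Elastic fibre genes were split. FBN1, fibrillin of the microfibrils, reached 883 CPM, with 616 CPM in the partners (ratio 1.43, 1.35 to 1.52), and MFAP5 of the same microfibrils stood at 2262 against 1674 CPM. ELN, elastin itself, had a ratio of 0.843 (0.823 to 0.863) that was 1.01 (0.986 to 1.03) in the cleaned comparison, and MFAP4 had 0.804 (0.752 to 0.859). The median log2 ratio over 16 genes was 0.04. Matrix proteases and their inhibitors had 8 of 15 above 1 and a median log2 ratio of 0.03, with MMP2 at 0.987 (0.942 to 1.03) and FAP, a surface protease of activated fibroblasts, at 1.02 (0.876 to 1.20).

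Genes outside the lists were also among the 10 at least 2-fold higher. HEBP2, a haem-binding protein, stood at 66.9 against 29.4 CPM and was found in 22.8% and 11.9% of cells. NCALD, a neuronal calcium sensor, stood at 47.2 against 22.7 CPM, and ACVRL1, a receptor for BMP9 and TGF-beta family ligands, at 23.0 against 11.3 CPM. DGKA, a diacylglycerol kinase, stood at 23.9 against 11 CPM. All 4 were under 2-fold in the cleaned comparison, at 1.78 (1.49 to 2.12), 1.59 (1.28 to 1.96), 1.58 (1.16 to 2.14) and 1.42 (1.06 to 1.89). The largest ratio of all, that of the chemokine CCL20 at 9.34, came from 1 cell: 326 of its 327 UMIs in POSTN-rich barcodes were in a single barcode. CTSW, a protease of cytotoxic lymphocytes with a ratio of 3.15, had 97.6% of its UMIs among POSTN-rich cells in barcodes of the other-lineage clusters. The 10th gene had no symbol in the files.

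In the cleaned comparison the genes at least 2-fold higher were CCL20, KERA, S100A4, CRISPLD1, TAC1 and DEPP1. S100A4, a calcium-binding protein of motile fibroblasts and immune cells, was found in 32.5% of POSTN-rich cells and 23.8% of the single partners, with ratios of 1.57 (1.41 to 1.75) and, cleaned, 2.15 (1.96 to 2.36). CRISPLD1, a secreted protein, had ratios of 1.74 and 2.54 on 10.2% and 8.98% of cells. TAC1, the substance P precursor, had 58.2% of its UMIs in 1 POSTN-rich barcode, and DEPP1 38.7%.

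Of the 50 genes at least 2-fold lower, 38 had 50% or more of their partner UMIs in the 19 partner barcodes of other lineages, and 28 had 90% or more. IL1B, CCL4, CD74, LYVE1 and CLDN5, genes of myeloid, antigen-presenting and endothelial cells, were among these 28. IL1B, for example, was counted 367 times in partners and 1 time in POSTN-rich cells, with 99.5% of the partner UMIs in those 19 barcodes. In the cleaned comparison these 5 genes fell below the limit for measuring, with 1 to 8 UMIs each in the POSTN-rich cells and 2 to 18 in their partners, so that no ratio could be read.

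The lower genes that fibroblasts themselves carried were fewer. CXCL5, a neutrophil-attracting chemokine, stood at 44.0 CPM, with 177 CPM in the partners (ratio 0.249, 0.205 to 0.301), or 0.236 (0.193 to 0.285) cleaned, and was found in 7.28% and 10.9% of cells. INHBA, a subunit of activin A, stood at 14.9 CPM, with 70.5 CPM in the partners (ratio 0.211, 0.150 to 0.291), or 0.423 (0.302 to 0.579) cleaned, although 6.55% and 7.28% of cells held it. Both differences therefore lay more in the UMIs of a few high cells than in the number of cells, and 28.9% of the INHBA UMIs of the partners came from 1 barcode. Against all 9071 POSTN-free barcodes, unmatched, the INHBA ratio was 0.803. SNAI1, a transcription factor of mesenchymal cells, was spread more evenly. It was found in 19.4% of POSTN-rich cells and 30.6% of partners, with a ratio of 0.489 (0.387 to 0.614), or 0.587 (0.475 to 0.721) cleaned. In the cleaned comparison the 6 genes at least 2-fold lower were INHBA, CXCL5, C3, FABP4, APOE and M-SAA3. APOE had a ratio of 0.910 (0.707 to 1.17) in the first comparison and 0.270 (0.193 to 0.368) in the cleaned one, where 1 partner barcode held 124 of its 486 partner UMIs. With those clusters left out and 1 partner a cell its log2 ratio was -0.24, and it was at least 2-fold lower in 2 of 15 settings. FABP4 moved from 0.583 (0.434 to 0.778) to 0.291 (0.190 to 0.429) and was lower in 5 of 15.

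Inflammatory genes, which are prominent in newborn fibroblasts, were mostly lower or level. PTX3 and CCL2, which mark an abundant inflammatory state here, had ratios of 1.06 (1.05 to 1.07) and 0.993 (0.978 to 1.01). SAA3 stood at 3427 against 5386 CPM (0.636, 0.621 to 0.652), CXCL2 at 823 against 1467 CPM (0.561, 0.534 to 0.589), and IL6 at 829 against 1041 CPM (0.796, 0.756 to 0.839). TNFAIP6, which modifies hyaluronan, went the other way at 9056 CPM, with 6972 CPM in the partners (ratio 1.30, 1.28 to 1.32). Of 20 measured members 7 had a ratio above 1, with 2 at least 2-fold higher and 4 at least 2-fold lower (0.228% and 1.14% of all genes) and a median log2 ratio of -0.13. These counts include CCL20 and IL1B, whose UMIs lay in 1 cell or in other lineages. In the cleaned comparison 1 of 18 was higher and 1 lower, with a median log2 ratio of -0.15. PTX3, CCL2 and SAA3 together reached 5% of a cell's UMIs in 113 POSTN-rich cells and 126 partners. These shares, 27.4% (23.2 to 32.0) and 30.6% (26.2 to 35.3), have overlapping intervals.

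Signalling genes showed no common direction. TGF-beta ligands, receptors and targets had 5 of 16 above 1 and a median log2 ratio of -0.10, or 0.01 cleaned, with 1 gene, INHBA, 2-fold lower. TGFB2 had a ratio of 0.698 (0.561 to 0.868) and the feedback inhibitor SMAD7 0.808 (0.666 to 0.978), while the co-receptor TGFBR3 had 1.25 (1.11 to 1.40). In the WNT list 4 of 8 were above 1: WNT2B, a ligand, had 1.63 (1.23 to 2.16) and the antagonist DKK2 1.54 (1.18 to 2.03), while the antagonist SFRP2 had 0.757 (0.655 to 0.874). IGFBP5 and IGFBP6, which bind insulin-like growth factors, both had 1.41. IGFBP1 stood at 0.555 (0.480 to 0.640) and IGFBP4 at 0.428 (0.316 to 0.575). The IGFBP4 ratio was 0.588 (0.445 to 0.768) in the cleaned comparison and 1 with cells thinned to 3000 UMIs, and it was at least 2-fold lower in 6 of 15 settings.

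Marker genes of neighbouring fibroblast states were found in similar numbers of POSTN-rich cells and partners. PI16 and CLEC3B, which mark adventitial fibroblasts, summed to 5 or more UMIs in 272 POSTN-rich cells and 269 partners. The 2 genes differed in opposite ways, CLEC3B with a ratio of 1.33 (1.28 to 1.39) and PI16 with 0.811 (0.739 to 0.889). PPARG, the regulator of fat cell formation, was found in 24 and 22 cells, and a contractile gene as 1 UMI in 30 and 29. Contractile genes outside the rule had 1 of 7 above 1 and a median log2 ratio of -0.14. Of 29 ribosomal protein genes 4 had a ratio above 1, with a median log2 ratio of -0.02, and of 15 heat shock genes 3, with -0.14.

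**Figure D3:**
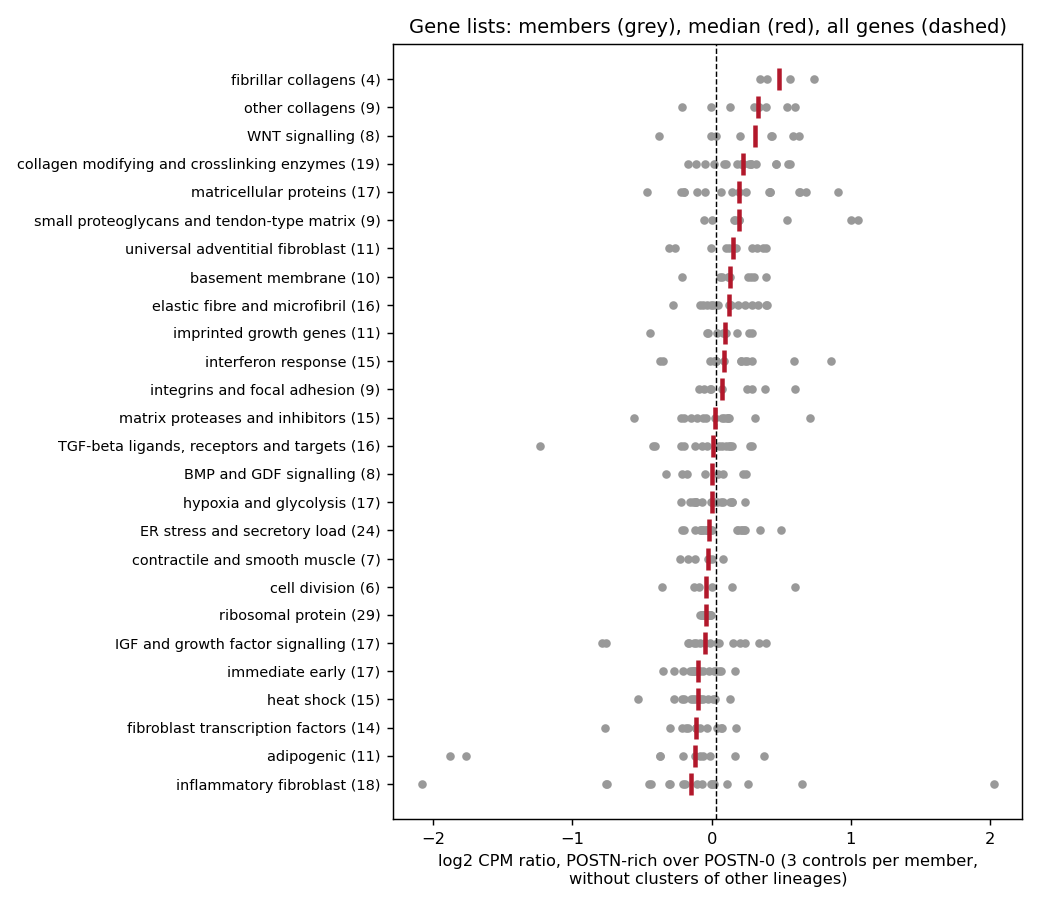
Log2 CPM ratio of POSTN-rich over POSTN-free fibroblast barcodes in the cleaned comparison, for the members of each gene list (grey points, number measured in brackets) and their median (red). The dashed line is the median of all 4278 genes, 0.03. Fibrillar collagens (0.48) and other collagens (0.33) have the highest medians and inflammatory fibroblast genes (-0.15) the lowest.

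POSTN-rich cells were found in most kinds of newborn fibroblast, at different rates. Clustering of the 11380 barcodes without the genes of the rule gave 16 clusters, numbered by size, of which 14 held POSTN-rich cells. The share was highest in cluster 10, led by SLPI, PROCR, CCL20, SPP1, KLK10 and BMP7, with 65 of 577 barcodes (11.3%, 8.80 to 14.1). Cluster 10 was also the deepest of the clusters not led by another lineage, with a median of 7765 UMIs. It held 65 of the 412 POSTN-rich cells (15.8%, 12.4 to 19.7) and 33 of their 412 depth-matched partners (8.01%, 5.58 to 11.1), so its excess was present at equal depth. In cluster 11, led by metallothionein MT1A and interferon response genes such as IFIT3 and RSAD2, the share was 7.03% (4.51 to 10.4). At equal depth cluster 11 held 23 POSTN-rich cells and 16 partners. Cluster 2, of median depth 1745 UMIs, had a share of 1.26%, but 17 POSTN-rich cells and 7 partners at equal depth. In both clusters the intervals of these matched shares overlap. POSTN itself stood at 100 CPM in clusters 10 and 11 and at 88.0 CPM in cluster 2.

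Clusters 4, 5 and 8 had shares of 5.33%, 5.58% and 5.46%. At equal depth they held 58, 54 and 36 POSTN-rich cells and 57, 48 and 31 partners. Some clusters held few. Cluster 1, led by the heat shock gene HSPA6 with FOS and JUN, had 39 of 1967 (1.98%, 1.41 to 2.70), and 62 partners at equal depth. Cluster 7, led by FABP4 and APOE, genes of lipid handling, had 15 of 879 (1.71%, 0.958 to 2.80). Cluster 13, led by CCL26 and C3, had 1 of 208, and cluster 12, of median depth 846 UMIs, had 0 of 267. At equal depth cluster 7 held 15 POSTN-rich cells and 24 partners, and cluster 13 held 1 and 7. The intervals of the matched shares overlap in clusters 1, 7 and 13. Depth differed widely among clusters, so the plain shares compare cells of unequal depth. SLPI, a protease inhibitor, stood at 704 against 372 CPM in POSTN-rich cells and partners, with 43.2% of the partner UMIs in 1 barcode.

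**Figure D4:**
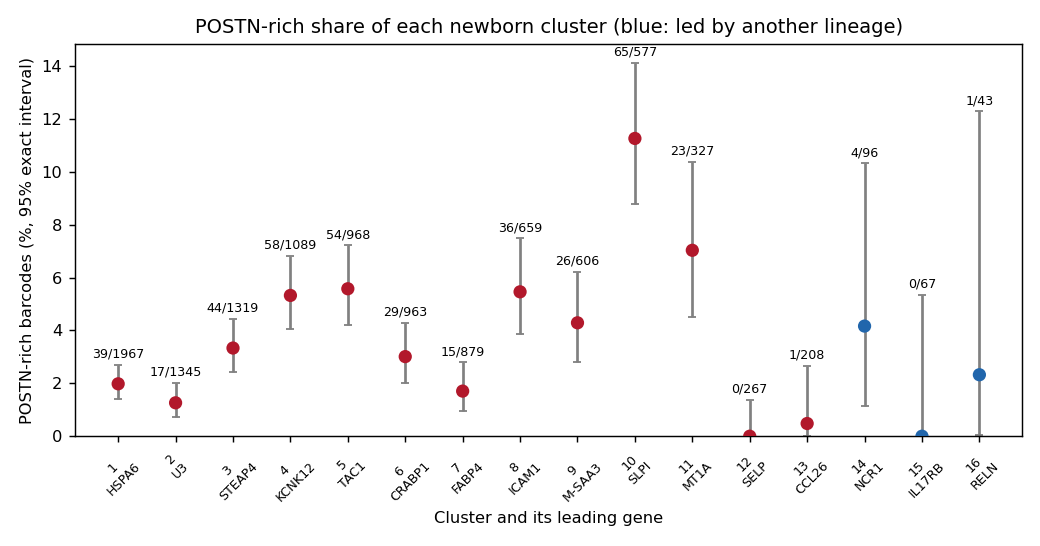
Share of POSTN-rich barcodes in each of 16 clusters of newborn fibroblast barcodes, with exact 95% intervals and counts (POSTN-rich of all). Clusters led by genes of another lineage are blue. Cluster 10 is highest at 11.3%, and clusters 12 and 15 hold 0.

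The collagen difference was not the same within clusters. Where a cluster held at least 20 POSTN-rich cells, they were matched again with partners of the same cluster, and the UMIs of COL1A2, COL5A1, COL5A2 and COL5A3 were summed. The ratio was 1.74 (1.59 to 1.90) in cluster 11, 1.67 (1.57 to 1.77) in cluster 6, 1.65 (1.56 to 1.74) in cluster 10, 1.51 (1.42 to 1.60) in cluster 8 and 1.39 (1.33 to 1.46) in cluster 5. It was near 1 in cluster 1 at 1.09 (1.02 to 1.17), in cluster 4 at 0.959 (0.915 to 1.01) and in cluster 3 at 0.955 (0.883 to 1.03). It was below 1 in cluster 9, led by M-SAA3 and SAA3, at 0.704 (0.589 to 0.841) on 26 cells a side. The sum of collagen VI, XII and XIV chains had a ratio above 1 in 8 of these 9 clusters, from 1.15 to 1.49, and 0.970 (0.778 to 1.21) in cluster 1. Its interval lay above 1 in 5 of the 9 and spanned 1 in the others. Each value rests on 23 to 63 cells a side, and a few cells can carry a collagen sum.

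Graded by POSTN count, some genes already differed between 0 and 1 POSTN UMI and others only in the top class. Barcodes with 1 and 2 POSTN UMIs were matched to the depth of the POSTN-rich ones, without the clusters of other lineages. FNDC1 stood at 12.1 CPM with 0 POSTN UMIs, 21.0 with 1, 24.9 with 2 and 31.0 with 3 or more. Its intervals in neighbouring classes overlap, at 8.44 to 16.7, 16.1 to 27.0, 19.3 to 31.7 and 25.0 to 37.9 CPM. Within the top class FNDC1 stood at 28.2 CPM with 3, 39.6 with 4 and 27.9 with 5 or more. SNAI1 stood at 76.4, 53.8, 55.5 and 36.9 CPM, and so was level between 1 and 2 POSTN UMIs. VCAN was already at 244 CPM with 1 POSTN UMI, against 170 CPM with none and 258 CPM with 3 or more.

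HAS2 differed only in the top class, at 30.8, 30.7, 35.5 and 70.8 CPM, and so did S100A4, at 123, 145, 128 and 262 CPM. COL1A2 was uneven, at 5653, 6150, 5674 and 6970 CPM, and COL1A1 likewise at 6219, 7202, 6574 and 7890 CPM. CXCL5 was uneven too, at 162, 37.2, 113 and 39.5 CPM. CXCL2 stood at 1172, 750, 607 and 811 CPM, and at 1173 CPM in the 188 barcodes with exactly 3 POSTN UMIs. SAA3 stood at 5969, 3917, 3824 and 3489 CPM. COL5A2 stood at 40.5, 42.0, 54.0 and 59.6 CPM. The median depth of these 4 classes lay between 6232 and 6397 UMIs.

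**Figure D5:**
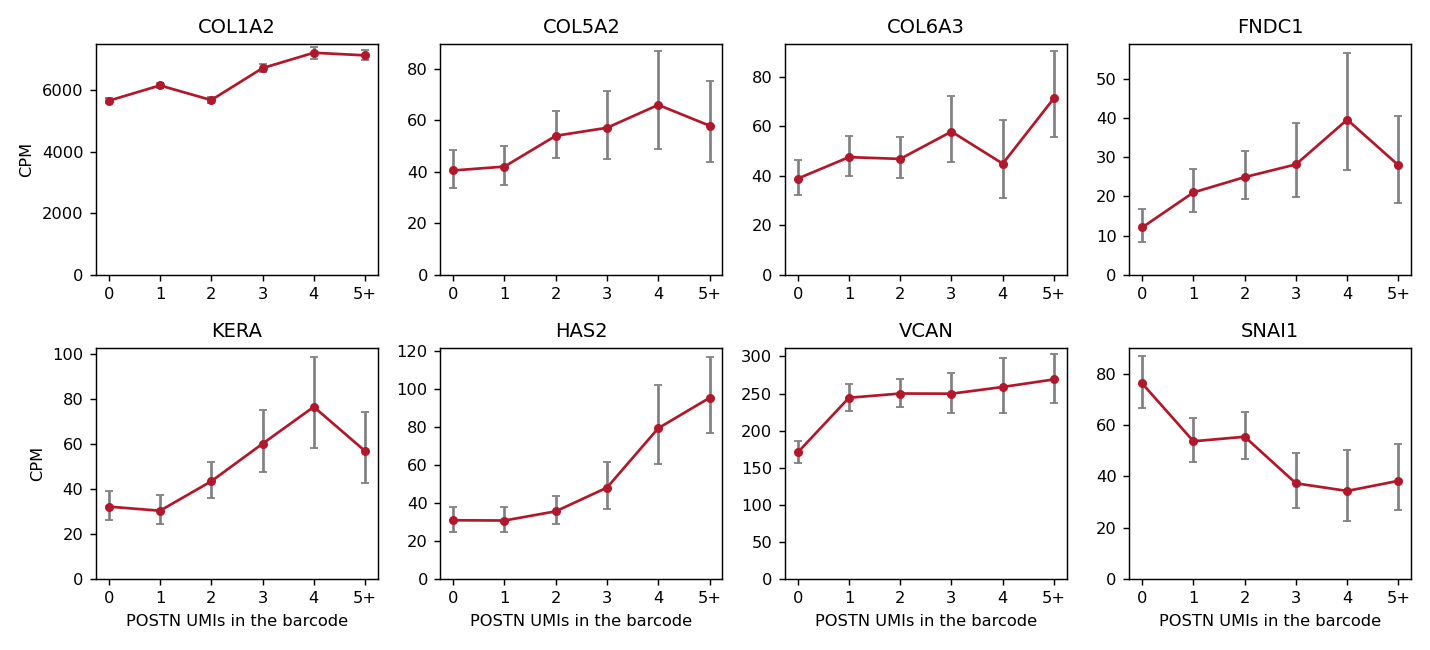
CPM of 8 genes in newborn fibroblast barcodes with 0, 1, 2, 3, 4 and 5 or more POSTN UMIs, without clusters of other lineages (bars are exact 95% Poisson intervals). Classes 0 to 2 were matched to the depth of the POSTN-rich barcodes, and the classes of 3, 4 and 5 or more divide the latter and differ in depth (median 5903, 6443 and 7120.5 UMIs). FNDC1 and VCAN step up from 0 to 1 and HAS2 from 2 upward. SNAI1 is lower at 1 and 2 than at 0, and lowest from 3 upward.

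Doublets, barcodes that hold 2 cells, were not removed. The highest doublet scores, by a rule that marked 1512 newborn barcodes, fell on 95 POSTN-rich cells (23.1%, 19.1 to 27.4) and 56 partners (13.6%, 10.4 to 17.3). Without those barcodes FNDC1, HAS2, HEBP2, KERA and CTHRC1 were among 16 genes at least 2-fold higher, and the POSTN-rich share was 3.13%.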

How the data were processed

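Single-cell libraries of newborn and of lactating adult mammary gland, 1 of each, were used. The authors deposited unnormalised UMI counts for each gene in each barcode. The submitters' processing notes name Cell Ranger 3.1.0, and the build is not given in the sources used here. The files pair 19730 of 27270 genes with a symbol. Members, gene lists and most tests were chosen with earlier results of these data known. UMIs were summed over cells and scaled to CPM. Partners with 0 POSTN UMIs were matched on total UMIs, nearest first, from the deepest barcode down. Ratios have exact conditional binomial intervals, levels exact Poisson and shares exact Clopper-Pearson intervals, all of 95%; for the adult share of 0 the upper limit is 3 counts of the total. Log2 ratios carry a prior count of 0.5. Named genes were the 15 largest ratios in each direction, the extremes of each list, genes of the rule and cell type markers, of which the text gives part. Other list members (such as SPARC, SERPINH1, OGN, MMP2, FAP and IL6), SLPI and the extremes of the cleaned comparison were chosen after their values were seen. Doublets were scored with Scrublet in scanpy 1.11.5; its own threshold marked 1 barcode, so the top 11.0% by score were left out as an alternative. Clusters used 2000 variable genes, 30 components, 15 neighbours and Leiden resolution 1. A cluster counted as led by another lineage when a marker list reached 10 times its median over clusters and 500 CPM, a limit chosen after seeing the data. The ratio calculation was tested on simulated counts that had no variation between cells. That test therefore does not cover ratios carried by a few barcodes. Alternatives covered the POSTN limit, matching, doublets, scaling, low-level limits and thinning.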

Additional observations from a re-analysis of the deposited data

How the results depend on the processing

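With 1 library a stage, nothing here has a replicate check, and the intervals cover counting error only. No paired analysis was possible because each stage has 1 library. The POSTN-rich share was 7.425% with a limit of 2 UMIs, 1.02% with 5 UMIs and 3.13% without likely doublets, and lay within its interval under 4 other settings. In 1 of these 4, cells were thinned to 3000 UMIs and the POSTN limit was also lowered to 2 UMIs. It gave 341 of 8958 barcodes (3.81%), which is a different measure and no check on the same share. The adult count was 0 under the 3 settings run, but none of them could have raised it. No adult fibroblast barcode held more than 1 POSTN UMI, and the mitochondrial limit only removes barcodes. The number of genes at least 2-fold higher, 10, and lower, 50, depended on the settings. Higher and lower genes numbered 1 and 28 with a limit of 2 POSTN UMIs, 97 and 145 with 5 UMIs (116 cells a side), 6 and 24 with 3 partners, 16 and 11 against all POSTN-free barcodes unmatched, 20 and 25 by the mean of the cells' own CPM, 4 and 15 at 50 CPM or more, and 71 and 184 at 5 CPM or more. Higher genes were 16 without likely doublets and 56 with all cells thinned to 3000 UMIs. Chosen after seeing the data, leaving out clusters led by another lineage gave 6 lower genes, the same with 3 partners gave 6 and 6, and leaving out each gene's highest barcode gave 25 lower genes. CCL20 turned to a log2 ratio of -3.17 without its highest barcode. Without the clusters of other lineages CCL4 turned to 0.92 (0.45 with 3 partners), CD74 to 1.58 (2.42) and CLDN5 to 1.58, each on 8 or fewer UMIs in POSTN-rich cells and below the limit for measuring, so that these signs show no direction. The median log2 ratio of the fibrillar collagen list lay between 0.31 and 0.57 over 15 settings. FNDC1 was at least 2-fold higher in 12 of 15, KERA in 11, HAS2 in 12, and CXCL5 and INHBA at least 2-fold lower in 14 each. Not all of these settings could change a gene's ratio. The mitochondrial limit and leaving out dividing barcodes removed no cell of either set, and the limits of 5 and 50 CPM leave ratios as they are. Scaling by the median of ratios shifted every log2 ratio by only 0.0187. These tallies therefore count settings that were no check on the ratio. The depth does not resolve genes below about 20 CPM in this number of cells.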

Other observations

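POSTN-rich cells also occurred among barcodes that the rule leaves out. Of 275 newborn barcodes that passed the fibroblast and mast cell limits but held 2 or more UMIs of CNN1, OXTR, DES and MYLK, 24 held 3 or more POSTN UMIs (8.73%, 5.67 to 12.7). Depth-matched fibroblast barcodes gave 15 of 275 (5.45%, 3.08 to 8.84), with overlapping intervals and the same median depth of 6277 UMIs. POSTN itself stood at 76.0 CPM in the contractile barcodes and 71.2 CPM in the matched ones. Of 5567 fibroblast barcodes with 5 or more PI16 and CLEC3B UMIs, 4190 found a depth-matched partner, and the rest were left out. Among these 4190, 162 were POSTN-rich (3.87%, 3.30 to 4.50), and among their partners 130 (3.1%, 2.60 to 3.67). These intervals overlap too, and the median depths still differed, at 5188 and 4679.5 UMIs.

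Over the 16 clusters, TSKU, a secreted small leucine-rich protein, had the largest Pearson correlation of log CPM with POSTN among 4129 genes ranked (0.83). CLMP, an adhesion molecule (0.79), and CKAP4, an endoplasmic reticulum protein (0.78), came next. Over the 13 clusters not led by another lineage the values were 0.75, 0.77 and 0.67, with CLMP above TSKU. The clusters share 1 library and differ in depth, so these values are a description. In POSTN-rich cells and their partners, TSKU stood at 97.6 and 98.7 CPM, CLMP at 38.8 and 29.8 CPM, and CKAP4 at 141 and 134 CPM.

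THBS4, a thrombospondin of tendon and muscle matrix, fell below the limit of 20 CPM. It was counted 40 times in POSTN-rich cells and 13 times in partners, a ratio of 3.07 (1.61 to 6.27), and was found in 3.16% and 1.70% of cells. It was chosen after its values were seen.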
